A study of Mus musculus with 6 samples.

Results

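Malat1, Neat1, Meg3, Miat, Rmst, Kcnq1ot1, Gas5 and Snhg1 are 8 long noncoding RNAs, transcripts that are not translated and that act in or around the nucleus or carry small nucleolar RNAs in their introns. They were picked around the high Malat1 and Kcnq1ot1 of the D2 library with DAMGO, so the DAMGO values of D2 cells chose them and are given as a description. Of the 8, 6 had a row matched by gene identifier among the 29267 gene rows, and Rmst and Snhg1 were not analysed here. Meg3 averaged fewer than 10 counts per library, so 5 of the 8 entered the tests across genes.

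The cells were mouse neural stem cells, strain OG2, at passage 8. The study's 6 libraries were D2 with DAMGO, D2 with naloxone, D2 control, NSC with DAMGO, NSC with naloxone and NSC control, with 1 library per group. NSC libraries came from undifferentiated neural stem cell cultures, and D2 libraries from cultures put through differentiation and labelled D2. DAMGO activates the mu opioid receptor and naloxone blocks opioid receptors. The labels give no dose or time for either and do not say whether libraries came from separate cultures. In bulk RNA, fewer cells of a type and less RNA per cell cannot be told apart.

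Library totals were 8417074 to 10218353 expected counts in D2 and 9112916 to 13561237 in NSC. By edgeR, all 10 astrocyte markers were higher in D2 than in NSC, as were 7 of 8 tested oligodendrocyte lineage markers and 8 of 10 neural stem and progenitor markers. Of 9 tested neuron markers 4 were higher and 3 lower in D2. Over all 13216 genes tested, 40.0% were called higher in D2 and 39.8% lower, and the neuron counts are near those shares. Nestin (Nes), the intermediate filament of neural stem cells, averaged 405 CPM in D2 and 1837 CPM in NSC, where CPM is the TMM-normalised count scaled to a common library size. It was 1 of the 2 stem and progenitor markers that were lower. On the same list Hes5 averaged 264 CPM in D2 and 16.2 in NSC, Slc1a3 3216 and 747, and Msi1 155 and 48.3. The microglial, endothelial and pluripotency marker lists each summed to at most 4.22 CPM in any D2 library and at most 4.82 CPM in any NSC library, with Cx3cr1, C1qa, Tyrobp and Cldn5 at 0 counts throughout.

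Malat1 is an abundant RNA of nuclear speckles, where splicing factors collect, and Neat1 is the scaffold of paraspeckles. Kcnq1ot1 is transcribed antisense to Kcnq1 from the paternal chromosome and silences neighbouring imprinted genes, and Meg3 is the maternally expressed RNA of the Dlk1-Dio3 imprinted domain. Miat, also called Gomafu, is a nuclear RNA of the nervous system that binds splicing factors. Gas5 and Snhg1 are spliced host genes whose introns release small nucleolar RNAs, and their spliced transcripts are known targets of nonsense-mediated decay. Rmst is a neural RNA known to work with Sox2.

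Malat1 lies on chromosome 19 at 5795690 to 5802672 and Neat1 on the same chromosome and strand at 5824708 to 5845478 (GRCm38, GENCODE M21, minus strand). The longest annotated transcript of each has 1 exon, of 6983 bases for Malat1 and 20771 bases for Neat1. Kcnq1ot1 is annotated as a single exon of 93092 bases on chromosome 7 at 143203458 to 143296549, minus strand. Miat lies on chromosome 5 at 112213228 to 112229395, minus strand, and Meg3 on chromosome 12 at 109541001 to 109571726, plus strand. Gas5 lies on chromosome 1 at 161034422 to 161038539, plus strand, has 25 annotated transcripts and overlaps 10 annotated small nucleolar RNA genes.

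Malat1 and Neat1 are stabilised without a poly(A) tail by an RNA triple helix near the 3′ end, in which U-rich stretches wrap an A-rich stretch. Their 3′ ends are shown because the longest transcript of each carries these stretches, while the gene levels here were far apart. The transcript length to which the deposited estimate assigned the Neat1 reads was 3130 to 4014 bases, against 20771 bases for its longest transcript. The Neat1 level is therefore not the level of the RNA that ends in this element. Capitals mark the 3 runs of at least 11 bases that the last 400 bases of the longest Malat1 and Neat1 transcripts share in the same order. They lie at chr19:5795982-5796065 for Malat1 and chr19:5824708-5824797 for Neat1, minus strand of GRCm38, written as DNA on the transcript strand.
Malat1 3′ element: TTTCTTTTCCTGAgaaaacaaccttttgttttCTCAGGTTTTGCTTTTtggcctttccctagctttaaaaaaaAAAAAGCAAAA
Neat1 3′ element: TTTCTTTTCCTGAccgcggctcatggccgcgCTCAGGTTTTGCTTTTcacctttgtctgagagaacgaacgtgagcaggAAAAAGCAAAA
All 3 runs in that order within 100 bases were found in 2 of 141767 annotated transcripts, those of Malat1 and Neat1 themselves. The Neat1 stretch ends at the last base of its longest transcript, and the Malat1 stretch ends 292 bases before it.

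The promoters of the RNAs whose levels carry the results are shown for what is written at their starts (RefSeq, GRCm38.p6; 250 bases before and 50 after the annotated start). Capitals mark CpG in the Malat1 window at chr19:5802623-5802922 and in the Miat window at chr5:112228899-112229198, both on the minus strand.
Malat1 promoter: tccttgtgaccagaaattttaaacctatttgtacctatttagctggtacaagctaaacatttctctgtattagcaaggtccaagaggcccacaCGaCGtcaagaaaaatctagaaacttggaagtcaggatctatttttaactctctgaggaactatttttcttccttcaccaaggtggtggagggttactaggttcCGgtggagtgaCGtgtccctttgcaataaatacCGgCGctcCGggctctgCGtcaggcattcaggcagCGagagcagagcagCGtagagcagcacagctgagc
Miat promoter: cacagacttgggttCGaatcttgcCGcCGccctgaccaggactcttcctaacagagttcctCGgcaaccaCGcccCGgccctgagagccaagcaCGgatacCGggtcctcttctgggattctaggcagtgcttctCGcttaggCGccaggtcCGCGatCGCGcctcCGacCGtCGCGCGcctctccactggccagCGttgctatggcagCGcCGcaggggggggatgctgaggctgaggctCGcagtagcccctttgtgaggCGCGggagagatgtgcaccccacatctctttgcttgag
The Malat1 window holds 10 CpG and the Miat window 25, and 43.5% and 18.4% of the 32851 RefSeq windows hold at least as many. Capitals mark CCAAT, searched on both strands, in the Kcnq1ot1 window at chr7:143296498-143296797, minus strand, and the first bases of the RNA in the second Gas5 window at chr1:161034916-161035215, plus strand.
Kcnq1ot1 promoter: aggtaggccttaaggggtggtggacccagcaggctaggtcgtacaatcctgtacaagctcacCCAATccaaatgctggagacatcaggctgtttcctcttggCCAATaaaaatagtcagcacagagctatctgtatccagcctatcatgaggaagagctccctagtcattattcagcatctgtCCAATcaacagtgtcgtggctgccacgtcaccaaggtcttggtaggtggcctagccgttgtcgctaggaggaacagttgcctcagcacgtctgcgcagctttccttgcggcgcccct
Gas5 promoter: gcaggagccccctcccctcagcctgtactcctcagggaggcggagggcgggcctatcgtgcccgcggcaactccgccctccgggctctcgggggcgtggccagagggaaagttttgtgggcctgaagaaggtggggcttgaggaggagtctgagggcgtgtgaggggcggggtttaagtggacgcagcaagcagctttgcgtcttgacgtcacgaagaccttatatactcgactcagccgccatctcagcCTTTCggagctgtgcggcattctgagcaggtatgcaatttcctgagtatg
The Kcnq1ot1 window holds 3 CCAAT, which 3.37% of windows reach, and 37.4% of windows hold at least 1. The Gas5 start is CTTTC, a C followed by pyrimidines as at the start of messages that encode the translation machinery. A C followed by 4 pyrimidines stands at the annotated RNA start in 2.505% of all windows, the Miat window among them. Of the 8 RNAs, 6 had a promoter window.

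Compared per length, in TPM, a level scaled for transcript length and for the total of its library, Gas5 and Malat1 were the most abundant of the 6. In D2 they averaged 281 ± 23.7 TPM for Gas5, 163 ± 61.9 TPM for Malat1, 121 ± 10.7 TPM for Miat, 1.16 ± 0.620 TPM for Neat1, 0.980 ± 0.229 TPM for Kcnq1ot1 and 0.953 ± 1.44 TPM for Meg3 (SD, n = 3 libraries under different ligand conditions). In NSC the order was Gas5 at 391 ± 28.2 TPM, Malat1 at 322 ± 36.4, Miat at 2.73 ± 0.221, Kcnq1ot1 at 1.90 ± 0.146, Neat1 at 1.69 ± 0.214 and Meg3 at 1.20 ± 0.133 TPM (SD, n = 3). Neighbours in this order whose ranges over the 3 libraries overlapped were Malat1 and Miat in D2, Neat1, Kcnq1ot1 and Meg3 in D2, and Kcnq1ot1 and Neat1 in NSC. Among all gene rows, Malat1 ranked 784 to 2136 by TPM in D2 and 434 to 574 in NSC, and Gas5 ranked 497 to 639 in D2 and 323 to 402 in NSC.

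**Figure D1:**
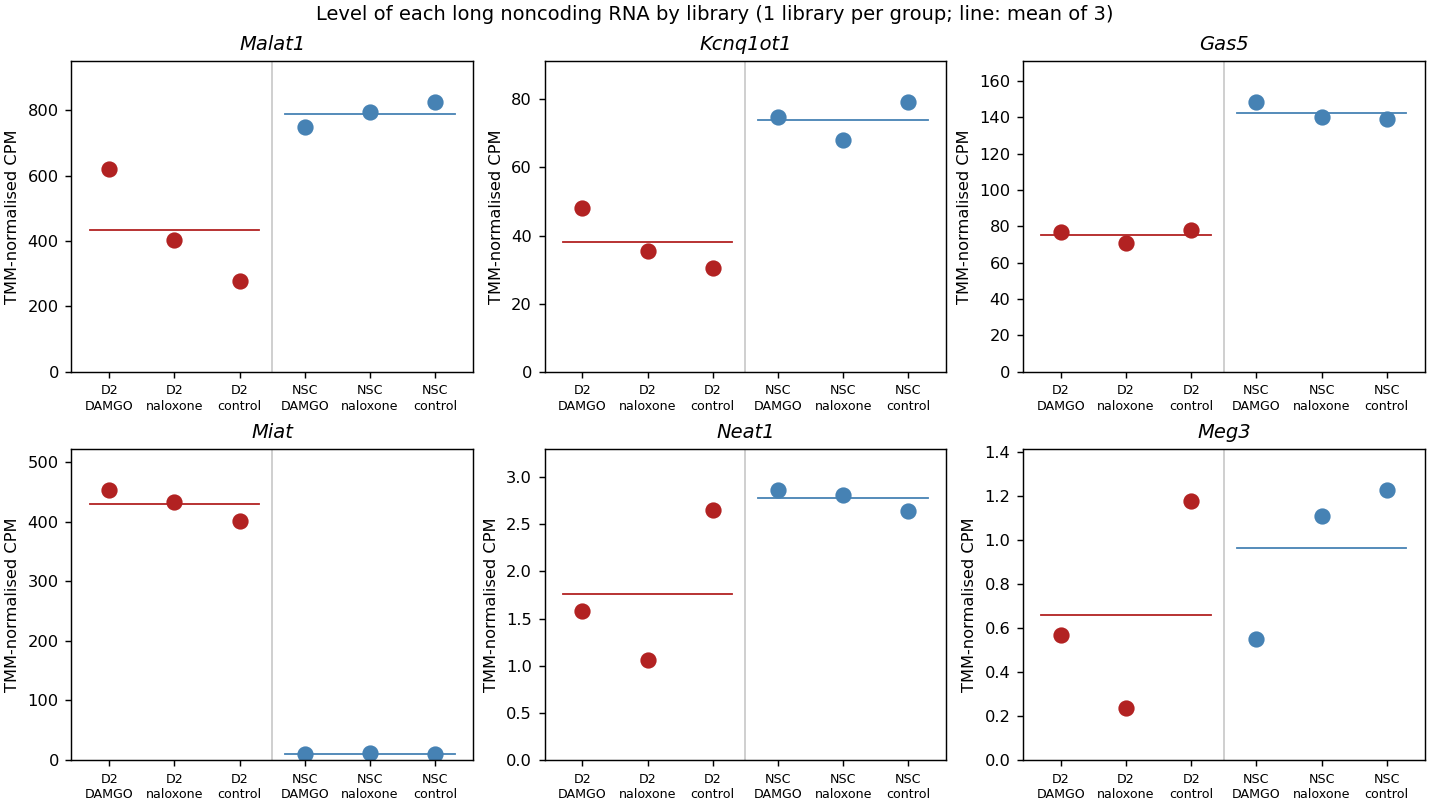
TMM-normalised CPM of the 6 long noncoding RNAs with a row (linear axes from 0, 1 point per library, line at the mean of 3 libraries). The D2 libraries with DAMGO, with naloxone and control stand left of the NSC libraries. In Malat1 the D2 points run between 278 and 621 CPM, all below the NSC points, while Miat is at 401 to 453 CPM in D2 and near 10 in NSC.

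In the 4 libraries without DAMGO, of the 5 RNAs tested between D2 and NSC, 1 rose (Miat), 3 fell (Malat1, Kcnq1ot1 and Gas5) and 1 (Neat1) did not pass the test. The fit was edgeR's quasi-likelihood test over 13216 genes with ligand as a covariate and a Benjamini-Hochberg adjusted p threshold of 0.05. It called 37.6% of all genes tested higher and 37.8% lower, so a call by itself does not set an RNA apart. With all 6 libraries, from which the values of Miat, Gas5, Neat1 and the gene lists come, 40.0% were called higher and 39.8% lower. D2 lay below NSC in every library for 40.9% of genes and above it for 41.3%.

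Malat1 had 620.9 CPM in D2 with DAMGO, 402.1 with naloxone and 277.6 in the D2 control, against 748.9, 794.7 and 826.7 CPM in NSC with DAMGO, with naloxone and control. All 3 D2 libraries were below all 3 NSC libraries. Highest over lowest was 2.24 in D2 and 1.10 in NSC, but the 2.24 is the ratio of DAMGO to control on which Malat1 was picked. Between naloxone and control the ratio was 1.45 in D2 and 0.961 in NSC. Because Malat1 was picked on the DAMGO library, its test comes from the 4 libraries without DAMGO, where the log2 fold change of D2 over NSC was -1.28 (SE 0.09, edgeR adjusted p 9.54e-11). That fit still uses the D2 control to which the DAMGO library was compared. It has 1 residual degree of freedom, so its SE draws on dispersion shared across genes and not on the spread of Malat1 alone. DESeq2 on the same 4 libraries gave a log2 fold change of -1.28 (SE 0.26, DESeq2 adjusted p 2.64e-06). The D2 to NSC ratio was 0.829 with DAMGO, 0.506 with naloxone and 0.336 in control.

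Kcnq1ot1 had 48.1 CPM in D2 with DAMGO, 35.6 with naloxone and 30.4 in the D2 control, against 74.9, 68.0 and 79.3 CPM in NSC with DAMGO, with naloxone and control. The groups did not overlap. Without the DAMGO libraries the log2 fold change of D2 over NSC was -1.16 (SE 0.10, edgeR adjusted p 2.63e-09). DESeq2 on the same libraries gave -1.16 (SE 0.19, DESeq2 adjusted p 9.60e-09). The ratio of D2 to NSC was 0.642 with DAMGO, 0.523 with naloxone and 0.383 in control. These rest on 301 to 425 counts in D2 and 679 to 920 in NSC, spread over a transcript that the tables list at 84395 bases.

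Miat had 453.5 CPM in D2 with DAMGO, 433.1 with naloxone and 400.5 in the D2 control, against 10.1, 10.9 and 10.3 CPM in NSC with DAMGO, with naloxone and control. The ratio of D2 to NSC was 44.7 with DAMGO, 39.6 with naloxone and 38.9 in control. The log2 fold change was 5.35 (SE 0.07, edgeR adjusted p 1.14e-13), and the difference between states was far larger than the spread within either. Per length, Miat reached 112 to 133 TPM in D2, against 2.52 to 2.96 TPM in NSC, and in the D2 control it was above Malat1, which had 102 TPM there. Its antisense neighbour Gm26953, whose reads an unstranded library cannot tell from those of Miat, had 0 to 30.2 counts.

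Gas5 had 77.0 CPM in D2 with DAMGO, 70.6 with naloxone and 78.0 in the D2 control, against 148.5, 139.9 and 138.9 CPM in NSC with DAMGO, with naloxone and control. The groups did not overlap, and the log2 fold change was -0.92 (SE 0.06, edgeR adjusted p 1.85e-08). The length of transcript to which the deposited estimate assigned the reads was shorter in D2, at 649, 685 and 633 bases with DAMGO, with naloxone and control, against 832.5, 866 and 885 bases in NSC in the same order. Per length the fall was therefore smaller. Gas5 had 287, 255 and 301 TPM in D2, against 423, 382 and 369 TPM in NSC, and limma on log2(TPM + 1) gave -0.48. Zbtb37 overlaps Gas5 on the other strand and had 274 to 327 counts in D2 and 536 to 831 in NSC, and its part in the Gas5 counts was not tested.

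**Figure D2:**
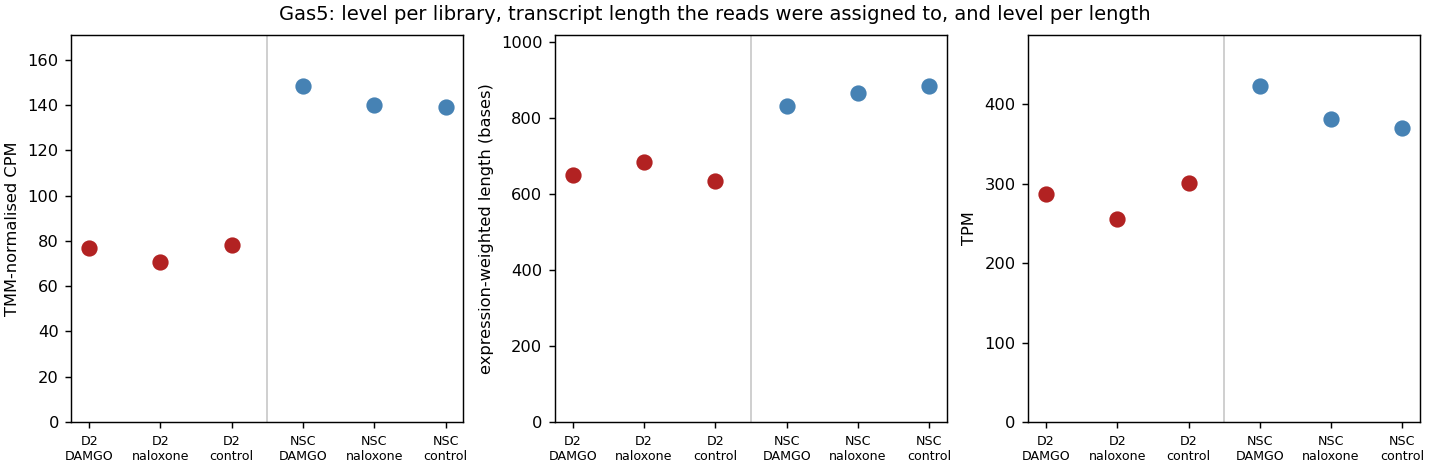
Gas5 in each library, as TMM-normalised CPM, as the expression-weighted transcript length in bases and as TPM (linear axes from 0, 1 point per library, D2 left of NSC). All 3 quantities are lower in each D2 library than in any NSC library, and the gap is narrower in TPM than in CPM.

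Neat1 had few counts in every library. It had 14 counts in D2 with DAMGO, 9 with naloxone and 27 in the D2 control, against 26, 38 and 28 counts in NSC with DAMGO, with naloxone and control, or 1.58, 1.06 and 2.65 CPM against 2.87, 2.81 and 2.64 CPM. The D2 control lay within the NSC range and both D2 ligand libraries lay below it. The log2 fold change was -0.67 (SE 0.32, edgeR adjusted p 0.0778). It was -1.11 without the D2 control (edgeR adjusted p 0.0117) and -1.11 without the NSC control (adjusted p 0.0106), but -0.38 without D2 with naloxone (adjusted p 0.376) and -0.37 without NSC with naloxone (adjusted p 0.396), so its size and its call depend on single libraries.

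Meg3 had 5 counts in D2 with DAMGO, 2 with naloxone and 12 in the D2 control, against 5, 15 and 13 in NSC with DAMGO, with naloxone and control. The groups overlapped, and Meg3 was under the count filter. In the fit without that filter its log2 fold change of D2 over NSC was -0.60 (SE 0.59, edgeR adjusted p 0.449). Its ratio of naloxone to control in D2 was 0.201 on those 2 counts (95% counting interval 0.0218 to 0.902).

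Within D2, Malat1 and Kcnq1ot1 were the RNAs at least 1.5-fold higher with DAMGO than in control, which is how they were picked, and Neat1 and Meg3 were more than 1.5-fold lower. The ratio was 2.24 for Malat1 (95% interval 2.14 to 2.34) and 1.58 for Kcnq1ot1 (1.36 to 1.84). These intervals are exact binomial intervals of the count ratio and cover counting error only, since each ratio compares a single pair of libraries. Over all tested genes 4.28% were at least 1.5-fold higher and 2.47% at least 1.5-fold lower in this comparison. Among the 8282 genes with a mean of at least 20 CPM, as Malat1 and Kcnq1ot1 have, 61 (0.737%) were that much higher and 9 that much lower. Because these 2 RNAs were picked on this ratio, the shares are a description. The 20 CPM mean was also taken over all 6 libraries, so a gene high only in D2 with DAMGO could reach it through that library. Gm21738, for example, had 113 CPM there and 0.222 to 20.6 CPM in the others. How many genes did so was not counted.

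The other RNAs had lower ratios. Miat had a ratio of DAMGO to control of 1.13 in D2 (1.08 to 1.18) and Gas5 of 0.987 (0.889 to 1.09). Neat1 had 0.598 (0.290 to 1.18) and Meg3 0.481 (0.133 to 1.47), on 5 to 27 counts, and both intervals include 1. In NSC, Malat1 with DAMGO was at 0.906 of control (0.877 to 0.935) and Kcnq1ot1 at 0.944. No tested member reached 1.5-fold either way there, against 2.04% of all tested genes at least 1.5-fold higher and 2.39% lower. Meg3, under the count filter, was at 0.449 in NSC (0.125 to 1.34), on 5 counts with DAMGO and 13 in control.

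With naloxone in D2, the ratio to control was 1.45 for Malat1 (1.38 to 1.52), 1.17 for Kcnq1ot1 (0.994 to 1.37), 1.08 for Miat and 0.906 for Gas5. Neat1 was at 0.401 (0.166 to 0.879), the one tested member past 1.5-fold in CPM, where 4.14% of tested genes were that much higher and 2.55% that much lower. The TPM ratio of Malat1 with naloxone to control in D2 was 1.59. In NSC, the ratio of naloxone to control was 0.961 for Malat1 (0.934 to 0.989) and 0.858 for Kcnq1ot1 (0.780 to 0.943), and no tested member reached 1.5-fold, against 2.19% of tested genes higher and 1.59% lower. The naloxone and DAMGO ratios share their control libraries, so they are given side by side and not related to each other. In D2, Malat1, Kcnq1ot1 and Miat each stood highest in CPM with DAMGO, then naloxone, then control, an order that 14.6% of tested genes had. For Malat1 and Kcnq1ot1 it includes the value on which they were picked, and in TPM Miat was highest with naloxone, at 133 TPM, with 119 TPM with DAMGO and 112 TPM in the D2 control.

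**Figure D3:**
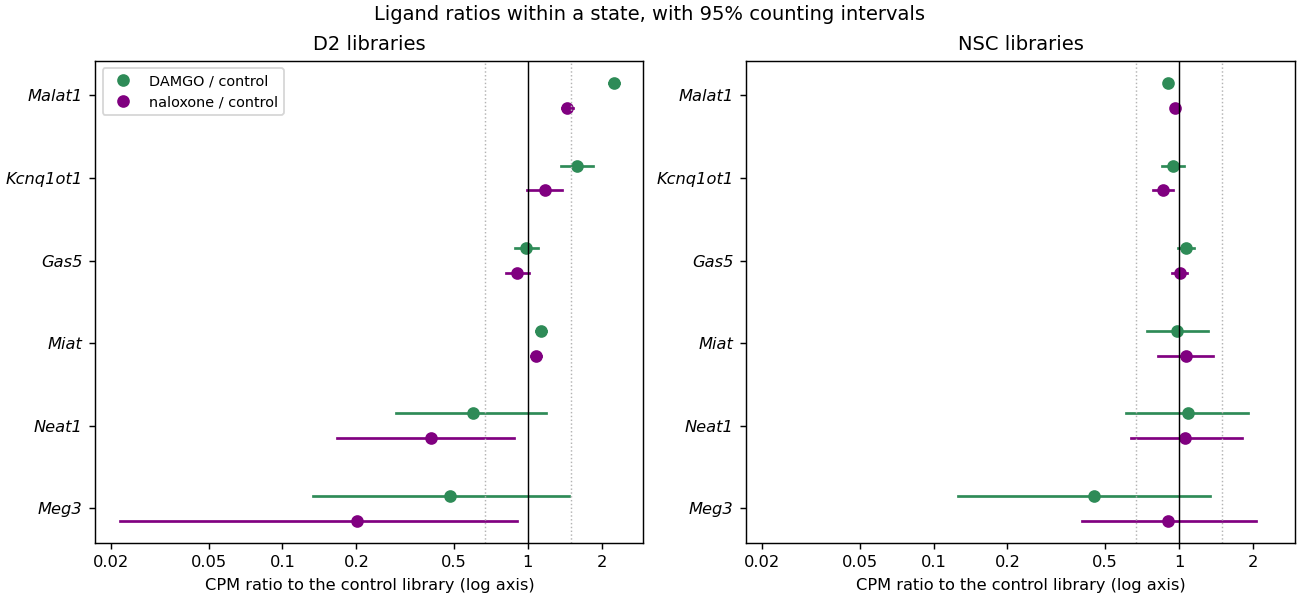
Ratio of DAMGO to control (green) and of naloxone to control (purple) for the 6 RNAs, in D2 (left) and NSC (right), on a log axis with 95% exact counting intervals; dotted lines mark 1.5-fold either way. In D2 Malat1 stands at 2.24 with DAMGO and 1.45 with naloxone, and in NSC its ratios are 0.906 and 0.961.

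Tested over both states with edgeR, none of the 5 RNAs passed the threshold for naloxone against control, with adjusted p of 0.999992 for each, 0 at an unadjusted p under 0.05, and 0 called by DESeq2 or by limma on log2(TPM + 1). In that test 0.00757% of genes were called higher and 0.00757% lower. The log2 fold change was 0.20 for Malat1 (SE 0.20) and -0.05 for Kcnq1ot1 (SE 0.13). For Malat1 it was 0.73 without the NSC control (adjusted p 0.0001) and -0.21 without the D2 control, so its value depends on which control is kept.

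Among long noncoding RNA genes as a class, 908 were tested. With DAMGO in D2, 175 (19.3%) were at least 1.5-fold higher and 77 at least 1.5-fold lower, against 371 (3.05%) higher and 237 lower of 12168 tested coding genes. With naloxone in D2, 131 of the 908 (14.4%) were at least 1.5-fold higher and 74 lower, against 398 (3.27%) and 251 coding genes. With DAMGO in NSC, 71 of the 908 (7.82%) were that much higher and 90 lower, against 192 (1.58%) and 214 coding genes. A larger share of long noncoding than of coding genes passed 1.5-fold in each of these comparisons, so this is not particular to DAMGO in D2. Of the 81 long noncoding RNA genes with a mean of at least 20 CPM, 11 (13.6%) were at least 1.5-fold higher and 0 lower, against 0.737% of all 8282 genes at that level. Malat1 and Kcnq1ot1 are among the 11, and the comparison is the one that chose them, so these shares are a description with no test. The 20 CPM mean includes the D2 library with DAMGO, so some genes could enter these sets only by being high there. Between D2 and NSC, 248 of the 908 rose and 331 fell by edgeR, with a median log2 fold change of -0.18.

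Malat1 and Kcnq1ot1 are also poor in G and C. Their mean transcript GC content is 41.4% and 40.3%, within the lowest of 5 equal groups of genes of at least 20 CPM (35.0% to 45.2%), where 2.85% of genes were at least 1.5-fold higher with DAMGO in D2, against 0.0606% to 0.363% in the other groups. Gas5, at 42.4% GC, is in the same group and its ratio was 0.987. With naloxone in D2, the median log2 ratio ran between 0.12 in the lowest group and -0.10 in the highest. The 20 CPM mean that defined these genes includes the D2 library with DAMGO, so the DAMGO shares by GC group are a description. The part of base composition in the Malat1 and Kcnq1ot1 ratios was not tested.

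**Figure D4:**
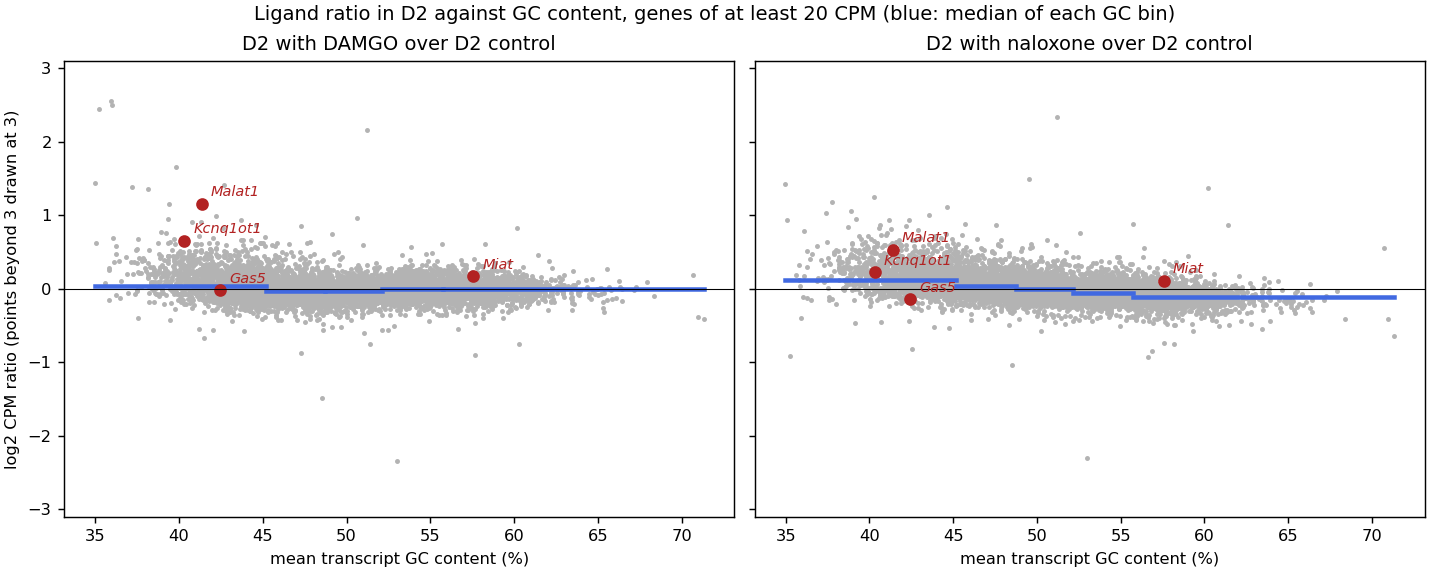
Log2 ratio of DAMGO to control (left) and of naloxone to control (right) in D2, against mean transcript GC content in percent, for genes of at least 20 CPM (grey), with the median of each of 5 GC groups in blue and Malat1, Kcnq1ot1, Gas5 and Miat in red. Malat1 (1.16 with DAMGO) and Kcnq1ot1 (0.66) lie at the low GC end above the median of their group, and Gas5, at a like GC content, lies at about 0.

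Predicted genes that are known to collect reads from repeat sequence were also high in the D2 library with DAMGO. The list held 14 genes, among them the coding gene Lars2, which had 149 CPM in D2 with DAMGO, 300 with naloxone and 106 in the D2 control, against 85.1 to 96.8 CPM in NSC. Of 12 tested, 11 were at least 1.5-fold higher with DAMGO than in control in D2, against 4.28% of all tested genes. However, Gm10719, Gm10720, Gm10721, Gm11168 and Gm17535 averaged under 10 counts over the other libraries. They passed the count filter only through the D2 library with DAMGO, so their being high there is no result. The count of 11 includes them, and the list was chosen with earlier results of these data known. That count is therefore a description, and its excess over the 4.28% is no test. The list summed to 1865 CPM in D2 with DAMGO, 545 with naloxone and 401 in the D2 control, against 85.6 to 113 CPM in the NSC libraries. Gm10800 had 828 CPM in D2 with DAMGO, 107 with naloxone and 140 in the D2 control, against 0.148 to 7.46 CPM in NSC. Gm37376, which lies antisense within Malat1, had 70.5 counts in D2 with DAMGO, 25.0 with naloxone and 12.2 in the D2 control, against 80.6, 121 and 65.5 counts in NSC with DAMGO, with naloxone and control. Fibroblast and pericyte markers went the other way, with a sum of 15.3 CPM in D2 with DAMGO, 15.2 with naloxone and 29.5 in the D2 control, against 0.772 to 11.02 CPM in NSC. In D2, 4 of their 5 tested markers were at least 1.5-fold lower than control with DAMGO and 4 with naloxone. Over all tested genes these shares were 2.47% and 2.55%. In NSC, 4 of the 5 were that much higher with naloxone and 3 that much lower with DAMGO, against 2.19% and 2.39% of all tested genes. The part of these repeat-like, antisense and marker genes in the Malat1 and Kcnq1ot1 values was not tested.

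The genes whose profiles over the 6 libraries were most like Malat1, by the root-mean-square difference of centred log2 CPM among 8281 genes of at least 20 CPM and leaving out predicted genes, were Hsd3b2 (0.156), Kcnq1ot1 (0.162), Dph5 (0.166), Rsbn1l (0.178) and Hltf (0.194). For Kcnq1ot1 they were Dph5 (0.0768), Zmym5 (0.108), Rsbn1l (0.112), Bmt2 (0.113) and Kdm7a (0.113). Dph5, an enzyme of diphthamide synthesis, had 20.03 CPM in D2 with DAMGO, 15.4 with naloxone and 13.0 in the D2 control, against 31.0, 31.1 and 30.4 CPM in NSC with DAMGO, with naloxone and control. Malat1 itself stood at rank 60 for Kcnq1ot1, with a difference of 0.162. These ranks are over 6 libraries that share 2 states and include the D2 library with DAMGO on which both RNAs were picked, so they are a description.

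Other host genes of small nucleolar RNAs were lower in D2 for the most part. Of 14 tested, 11 fell and 2 rose, with a median log2 fold change of -1.02, against 0.00 over all genes tested. Over all genes 39.8% fell and 40.0% rose, the shares to set beside this list and those below. Nop56, a core protein of box C/D particles whose introns host such RNAs, averaged 97.9 ± 7.25 CPM in D2 and 299 ± 7.86 CPM in NSC (SD, n = 3; log2 fold change -1.61, edgeR adjusted p 7.67e-11). Rcc1, the Ran exchange factor, fell to 35.6 CPM in D2, against 98.2 in NSC. Snhg14 had 33.9 and Snhg15 5.24 CPM in D2, against 95.8 and 16.0 in NSC. With DAMGO in D2, 1 of the 14 was at least 1.5-fold higher than control and the median log2 ratio was 0.07. Over all tested genes 4.28% were that much higher and 2.47% that much lower, the shares to set beside the DAMGO counts here and below.

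Among 20 other tested long noncoding RNAs known in neural cells, 11 fell and 4 rose, with a median of -0.86. Pvt1, a neighbour of Myc, had 6.81 CPM in D2 and 61.0 in NSC (log2 fold change -3.16, edgeR adjusted p 2.66e-11). Mir17hg, the host of the miR-17 cluster, had 1.74 CPM in D2 and 11.4 in NSC, and Dleu2 had 9.89 and 30.3. Firre, a nuclear RNA of the X chromosome, rose to 27.0 CPM in D2, against 10.1 in NSC. Xist, the RNA that coats the inactive X chromosome and was added after its values were seen, had 958 CPM in D2 with DAMGO, 889 with naloxone and 660 in the D2 control, against 1791, 1731 and 1815 CPM in NSC with DAMGO, with naloxone and control. With DAMGO in D2, 1 of the 20 was at least 1.5-fold higher than control and 2 at least 1.5-fold lower, against 4.28% and 2.47% of all tested genes.

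Malat1 and Neat1 occupy nuclear bodies built with many proteins, whose messages were counted here. Of 19 paraspeckle protein genes tested, 18 fell and 0 rose, with a median log2 fold change of -0.69. Matr3, a nuclear matrix RNA-binding protein, averaged 164 ± 13.0 CPM in D2 and 577 ± 22.1 CPM in NSC (SD, n = 3; log2 fold change -1.81, edgeR adjusted p 4.81e-11). Cpsf6, of the polyadenylation machinery, had 94.0 CPM in D2 and 274 in NSC. Srsf10, a splicing factor, had 70.7 and 248, and Tardbp, which encodes TDP-43, had 211 and 570. None of the 19 was at least 1.5-fold higher or lower with DAMGO in D2.

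Of 16 nuclear speckle proteins and SR-protein genes tested, 14 fell and 1 rose between D2 and NSC, with a median of -0.82. Srsf1 and Srsf3, SR splicing factors, had 262 and 250 CPM in D2, against 588 and 537 in NSC. Pnn, a speckle protein, had 60.1 CPM in D2 with DAMGO, 58.7 with naloxone and 38.7 in the D2 control, against 246 to 256 CPM in NSC. Prpf4b, a kinase of the spliceosome, had 67.7, 66.0 and 49.8 CPM in D2 in the same order. With DAMGO in D2, 2 of the 16 were at least 1.5-fold higher than control, and Pnn was one of them at 1.55 (1.36 to 1.77). That much higher were 4.28% of all tested genes and 0.737% of those of at least 20 CPM.

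Of 14 nonsense-mediated decay factors, 10 fell and 2 rose in D2, with a median of -0.32. Upf3b averaged 18.1 CPM in D2 and 66.3 in NSC, Upf2 15.9 and 51.8, Smg1, the kinase that phosphorylates Upf1, 145 and 261, and Smg9 26.4 and 39.6. With DAMGO in D2, Upf3b stood at 1.62 of control (1.30 to 2.03), and it was the 1 factor at least 1.5-fold higher, against 4.28% of all tested genes.

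Around Kcnq1ot1, of 12 genes of the imprinted domain, 5 were tested, of which 3 rose and 1 fell in D2. Of all genes tested 40.0% rose and 39.8% fell, so counts on so few genes do not set the domain apart. Cdkn1c, a cell cycle inhibitor silenced by Kcnq1ot1 on the paternal chromosome, had 13.8 ± 0.759 CPM in D2 and 3.12 ± 0.120 CPM in NSC (SD, n = 3; log2 fold change 2.14, edgeR adjusted p 6.43e-08), and its ratio of DAMGO to control in D2 was 0.941 (0.729 to 1.21). Osbpl5 had 48.8 CPM in D2 and 25.4 in NSC, and Cd81, a tetraspanin, 769 and 495. Tssc4 fell to 41.8 CPM in D2, against 52.6 in NSC. Kcnq1, the potassium channel gene that Kcnq1ot1 overlaps, had 1 count over all libraries.

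Near Meg3, 4 of 8 genes of the Dlk1-Dio3 domain were tested, with 1 higher and 1 lower in D2. Wdr25 had 7.70 CPM in D2 and 4.74 in NSC (log2 fold change 0.70, edgeR adjusted p 0.00258). Around Malat1 and Neat1, 12 coding neighbours were tested, of which 6 rose and 3 fell, with a median of 0.21. With 40.0% of all genes called higher and 39.8% lower, the counts of these 2 regions do not set them apart. Ltbp3, which binds latent TGF-beta, had 131 CPM in D2 and 49.3 in NSC. Frmd8 had 50.3 and 117, Pola2, a subunit of DNA polymerase alpha, 19.7 and 67.9, and Ehbp1l1 7.95 and 4.004. In D2 with DAMGO, Slc25a45 stood at 1.54 of control and Ssh3 at 0.564, both at under 5 CPM in every library and named after their values were seen, and the other 10 were within 1.5-fold. Short nuclear noncoding RNAs such as Rn7sk and Rmrp had no matched row for any of 12 names and were not analysed here.

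**Figure D5:**
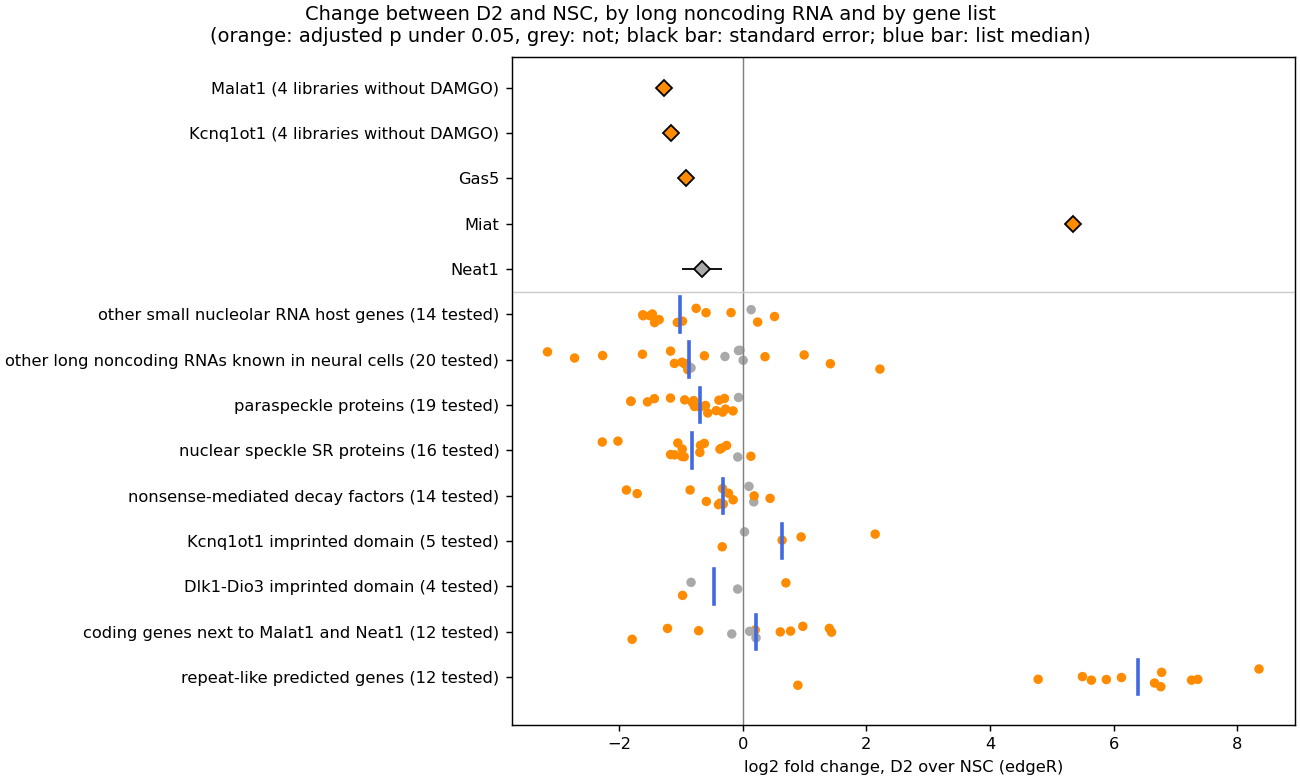
Log2 fold change of D2 over NSC by edgeR, for the 5 tested RNAs (diamonds with standard error) and for the genes of each list (points, orange where adjusted p was under 0.05, blue bar at the list median). Malat1 and Kcnq1ot1 are drawn from the 4 libraries without DAMGO (-1.28 and -1.16) and all else from 6 libraries. Gas5 lies at -0.92 and Miat at 5.35, with list medians of -1.02 for the small nucleolar RNA hosts and -0.86 for the other neural long noncoding RNAs.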

How the data were processed

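Trizol-extracted total RNA went into Illumina TruSeq RNA libraries, per the labels' protocols, a kit that does not mark strand. No source used here states poly(A) selection, annotation or read filters. Per the submitters' processing notes, Bowtie and RSEM were used on mm10. The authors deposited expected counts, which share out reads that map to several transcripts, and TPM values; the deposited FPKM values were not used. Fractional counts occurred for every analysed RNA but Gas5. Gene names came from GENCODE M21, which matched 28756 rows.

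Counts were rounded and TMM-normalised. Tests took genes averaging 10 or more counts, with edgeR 4.0.16 (state plus ligand, 2 residual degrees of freedom, or 1 without the DAMGO libraries). Ratios between single libraries have an exact binomial 95% interval, and their log2 values a prior count of 2. P-values rest on spread between libraries, which may be technical and is in part estimated from other genes. Intervals cover counting error only. DESeq2 1.42.0, limma 3.58.1 on log2(TPM + 1), other filters and scalings and leaving out each library were alternatives. Context genes named are up to 4 per list with the largest called change at 5 CPM or more. The RNAs and all lists were chosen with earlier results of these data known.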

Additional observations from a re-analysis of the deposited data

Results flagged for a closer look

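The Malat1 log2 ratios to control had opposite signs in D2 and NSC under both ligands, and those of NSC were small. With DAMGO the log2 ratio to control was 1.16 in D2 and -0.14 in NSC, a difference of 1.30. With naloxone it was 0.53 in D2 and -0.06 in NSC, a difference of 0.59. On log2(TPM + 1) the ratios were 1.14 in D2 and -0.30 in NSC with DAMGO, and 0.67 in D2 and -0.01 in NSC with naloxone. Each comes from a single pair of libraries per state, the difference was not tested, and both share the control libraries. DAMGO in D2 is also the value on which Malat1 was picked.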

How the results depend on the processing

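The calls between D2 and NSC in the fit with all 6 libraries held for Malat1, Kcnq1ot1, Gas5 and Miat under all 14 alternatives run. Their log2 fold changes were -1.28 to -0.62, -1.16 to -0.55, -0.97 to -0.48 and 5.03 to 5.38. Most of these alternatives kept the D2 library with DAMGO, on which Malat1 and Kcnq1ot1 were picked. The smallest sizes came on log2(TPM + 1) for Kcnq1ot1 and Gas5, and for Malat1 without the NSC control (-0.62) or the D2 control (-0.63), against -0.94 with all 6 libraries. Neat1 also passed without a count filter (adjusted p 0.0496). In the fit without the DAMGO libraries, Malat1 and Kcnq1ot1 kept their calls under all 6 alternatives run. Their log2 fold changes there were -1.41 to -1.27 for Malat1 and -1.18 to -0.64 for Kcnq1ot1. The largest adjusted p was 0.000107 for Malat1 and 0.0365 for Kcnq1ot1, both from limma on log2(TPM + 1). For naloxone, leaving out 1 library at a time gave 0 to 1 RNAs called (Malat1, without the NSC control), and log2 fold changes of -0.21 to 0.73 for Malat1, -0.28 to 0.32 for Kcnq1ot1, -1.11 to 0.0149 for Neat1 and -0.13 to 0.00825 for Gas5, so that their sign turned, for Kcnq1ot1 without the NSC control and for the others without the D2 control; the cause was not tested. Over all genes, naloxone called 1 higher and 1 lower, against 20 and 25 without a filter, 0 and 0 with limma, DESeq2 size factors or a minimum mean of 50 counts, 1 and 0 with DESeq2, and 1 to 50 and 0 to 24 when 1 library was left out. The Kcnq1ot1 log2 ratio of DAMGO to control in D2 was 0.33 on log2(TPM + 1), against 0.66, because a pseudocount of 1 is about as large as its TPM. On the same scale Malat1 moved to 0.67 for naloxone in D2, -0.01 for naloxone in NSC and -0.30 for DAMGO in NSC, and Miat in D2 to 0.25 for naloxone and 0.09 for DAMGO. No paired analysis was possible because each group has 1 library and the labels carry no replicate numbers; the fit matches D2 with NSC by its ligand term only. Neat1 and Meg3 are limited by depth, and 3 counts, the most that a count of 0 allows, are 0.221 to 0.356 CPM.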
